A study of Mus musculus with 6 samples.

Results

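The genes described here are 45 genes of the WNT pathway, taken from the 53465 genes of the count table by name: 15 WNT ligands, 15 receptors and co-receptors, 5 secreted antagonists, 3 genes of the destruction complex, 4 TCF/LEF transcription factors and 3 feedback inhibitors. They were measured by RNA-seq in the mouse mammary carcinoma line 4T1, which comes from a Balb/c mouse, with 3 libraries of parental cells (P) and 3 of axitinib-resistant cells (AxR). Axitinib is a tyrosine kinase inhibitor of the VEGF receptors. The comparison asked how transcripts of the pathway differ between a resistant line and the line it came from.

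The P cells carried no treatment label. The AxR cells came from a spontaneous metastasis, in lung or lymph node, of Balb/c mice given axitinib at 100 mg/kg/day during growth of the orthotopic tumor and after its removal. They were then cultured for more than 2 months in 0.5 μM axitinib. One growth description, shared by all 6 samples, names axitinib in the medium, whereas the treatment labels name it for AxR cells only, so the drug history of the P cells is given differently by the sources. AxR is 1 derived line, and drug exposure, passage through an animal, metastasis and later culture cannot be told apart. No source says that the 3 libraries of a line were separate cultures, so p-values measure the spread between these libraries, which may be technical.

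WNT ligands are secreted lipid-modified proteins that bind Frizzled receptors together with LRP co-receptors. In the canonical branch this stops the destruction complex, built on AXIN and APC, from marking β-catenin for degradation, and β-catenin then acts with TCF/LEF factors in the nucleus. Other branches act through Frizzled, ROR, RYK and PTK7 receptors on cell polarity and calcium. In the mouse mammary gland the pathway is known for ductal growth and stem cells, and Wnt1, Wnt3 and Wnt10b are genes next to which mouse mammary tumor virus inserts.

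Levels are given in CPM, counts per 1000000 counts of the library after upper quartile scaling, and a gene was called higher or lower when its edgeR adjusted p was below 0.05. Of the 45 genes, 28 had enough counts to be tested. In AxR cells 8 of the 28 were higher, against 32.8% of all 13550 genes tested, 10 were lower, against 30.8%, and 10 were not called. At a log2 fold change of at least 1, 2 were higher, Wnt10b and Wnt9a, against 7.99% of all genes, and 4 were lower, Fzd9, Fzd1, Wnt10a and Tcf7, against 4.72%. In 18 of the 28 the P and AxR libraries did not overlap, against 68.3% of all genes. The median log2 fold change was -0.03 over the 28 genes and 0.01 over all genes tested. An exact permutation test of 3 against 3 libraries cannot go below p = 0.1. In bulk RNA, fewer cells that express a gene and less of its RNA per cell cannot be told apart.

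**Figure D1:**
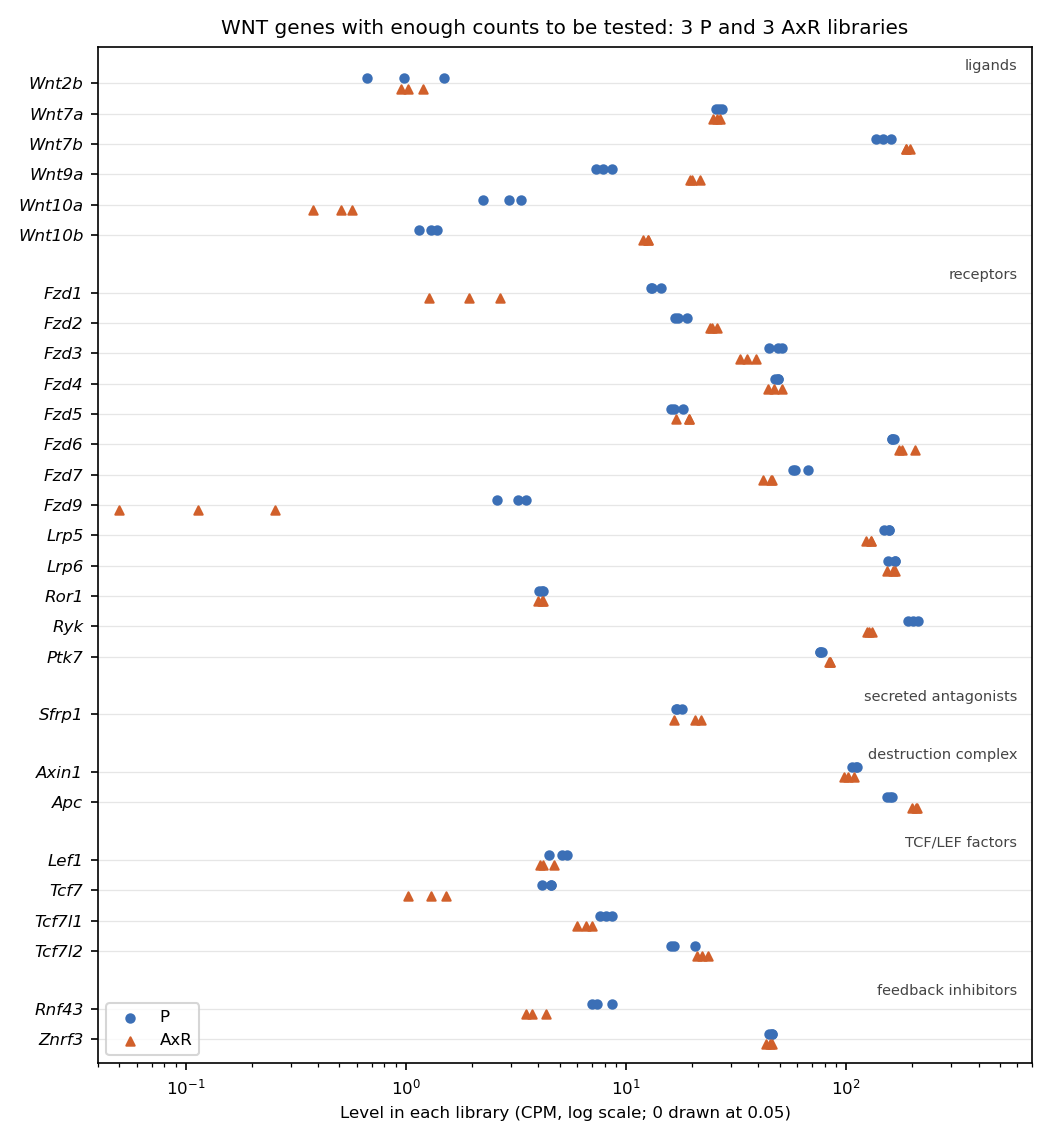
Level of each tested WNT gene in every library (CPM, logarithmic axis, 0 drawn at 0.05), with circles for the 3 P and triangles for the 3 AxR libraries, ordered by role. Wnt10b stands higher in AxR cells, and Fzd9, Fzd1, Wnt10a and Tcf7 lower, with no overlap between the lines.

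The sequences before the start sites are shown for genes with a call, either because the change was among the largest (Wnt10b and Fzd1) or because the window holds a TCF/LEF heptamer (Fzd7 and Tcf7l2). They are the 250 bases before a RefSeq start (GRCm38.p6), 5′ to 3′ on the strand of the gene, with a heptamer in capitals. The 30 bases after the start lay in a GENCODE transcript of the gene for Wnt10b, but not for Fzd1, Fzd7 or Tcf7l2. The windows lie at chr15:98778151-98778400 (minus strand) for Wnt10b, chr5:4758217-4758466 (minus strand) for Fzd1, chr1:59481897-59482146 (plus strand) for Fzd7 and chr19:55895071-55895320 (plus strand) for Tcf7l2, whose window precedes a start inside the gene.
Wnt10b: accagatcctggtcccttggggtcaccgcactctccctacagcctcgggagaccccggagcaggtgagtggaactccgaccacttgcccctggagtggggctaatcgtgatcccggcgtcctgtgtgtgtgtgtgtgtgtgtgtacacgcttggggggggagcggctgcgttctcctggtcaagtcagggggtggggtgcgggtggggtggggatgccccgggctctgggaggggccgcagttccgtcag
Fzd1: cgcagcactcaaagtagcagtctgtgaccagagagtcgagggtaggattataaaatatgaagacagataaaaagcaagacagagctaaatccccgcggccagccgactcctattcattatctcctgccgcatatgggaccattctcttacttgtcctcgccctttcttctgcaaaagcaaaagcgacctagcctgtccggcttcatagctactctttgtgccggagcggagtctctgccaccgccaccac
Fzd7: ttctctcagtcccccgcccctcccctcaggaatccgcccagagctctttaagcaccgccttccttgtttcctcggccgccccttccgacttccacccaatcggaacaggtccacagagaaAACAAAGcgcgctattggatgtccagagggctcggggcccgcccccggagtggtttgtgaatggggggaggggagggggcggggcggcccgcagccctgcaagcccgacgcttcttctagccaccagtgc
Tcf7l2: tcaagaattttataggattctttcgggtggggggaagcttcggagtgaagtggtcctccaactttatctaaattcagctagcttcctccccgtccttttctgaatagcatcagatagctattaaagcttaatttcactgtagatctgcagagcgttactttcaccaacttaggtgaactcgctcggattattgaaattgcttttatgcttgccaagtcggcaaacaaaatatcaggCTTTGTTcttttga

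The heptamers searched, on both strands, were CTTTG followed by AA, AT, TA or TT, the core to which TCF/LEF proteins are known to bind. RefSeq windows were found for 31 of the 45 genes, 40 windows in all. A heptamer stood in 6 of the 40 (15.0%) and in 14.8% of all 32851 windows. These shares were not adjusted for base composition, which differed between the 2 sets of windows. The Fzd7 window holds AACAAAG, the reverse complement of CTTTGTT, and the Tcf7l2 window holds CTTTGTT. Beside these 2 genes, a heptamer was found in windows of Dkk1, Lef1, Wnt11 and Wnt5b. The other RefSeq window of Tcf7l2 holds none. The windows of WNT genes were rich in G and C, with a median of 66.4% against 52.4% for all windows, and held a median of 18.5 CpG against 6.

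Among the ligands, Wnt10b rose most in AxR cells and Wnt10a fell most, while Wnt7b was the most abundant ligand transcript in both lines. Of 15 ligands, 6 could be tested: 3 were higher and 1 was lower, against 32.8% and 30.8% of all genes tested, and 2 were not called. Wnt10b (ENSMUSG00000022996, chr15:98770712-98778150) encodes a canonical ligand known for roles in mammary gland, hair and bone. It stood at 1.15, 1.39 and 1.3 CPM in the P libraries and at 12, 12.6 and 12.6 CPM in the AxR libraries. All AxR libraries were well above all P libraries. The log2 fold change was 3.27 (SE 0.148, edgeR adjusted p = 7.99e-11), a fitted fold of 9.62.

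Wnt9a (ENSMUSG00000000126, chr11:59306928-59333552), a ligand with roles in joint formation and blood stem cells, had 7.90, 8.66 and 7.30 CPM in P cells and 19.6, 21.8 and 19.9 CPM in AxR cells. The lines did not overlap, and the log2 fold change was 1.36 (SE 0.0974, edgeR adjusted p = 1.31e-08). Wnt10a (ENSMUSG00000026167, chr1:74791516-74804179), the closest relative of Wnt10b and a ligand needed for teeth and skin appendages, went the other way. Its level was 2.25, 3.35 and 2.93 CPM in P cells and 0.381, 0.510 and 0.569 CPM in AxR cells. Here all P libraries were above all AxR libraries, with a log2 fold change of -2.52 (SE 0.297, edgeR adjusted p = 2.70e-06). The AxR values rest on 6, 8 and 10 counts.

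Wnt7b (ENSMUSG00000022382, chr15:85535437-85582473), an epithelial ligand, had 137, 160 and 147 CPM in P cells and 188, 188 and 195 CPM in AxR cells. The rise was small but the libraries did not overlap (log2 fold change 0.36, SE 0.0577, edgeR adjusted p = 5.49e-05). Wnt7a, its paralog, was not called (log2 fold change -0.03, SE 0.0709), at 26.5 ± 0.831 CPM in P cells and 25.9 ± 1.02 CPM in AxR cells (SD, n = 3 each). Wnt2b was not called at about 1 CPM (log2 fold change 0.02, SE 0.330), where its standard error leaves a wide range of changes possible.

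Per kb of exon, the summed level of the 15 ligands was 39.96, 46.0 and 42.6 CPM in the P libraries and 56.5, 57.1 and 58.5 CPM in the AxR libraries. The sum was thus higher in every AxR library. Wnt7b made up 70.4 ± 0.571% of it in P cells and 67.7 ± 0.407% in AxR cells (SD, n = 3). The order of the others per kb in P cells was Wnt7a (8.35 ± 0.262), Wnt9a (2.39 ± 0.204), Wnt10a (1.15 ± 0.225), Wnt10b (0.377 ± 0.0344) and Wnt2b (0.250 ± 0.0999). The libraries of the last 2 overlapped. In AxR cells it was Wnt7a (8.16 ± 0.321), Wnt9a (6.14 ± 0.357), Wnt10b (3.65 ± 0.101), Wnt2b (0.251 ± 0.0297) and Wnt10a (0.197 ± 0.0389), so Wnt10b stood above Wnt10a, and the libraries of the last 2 overlapped.

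**Figure D2:**
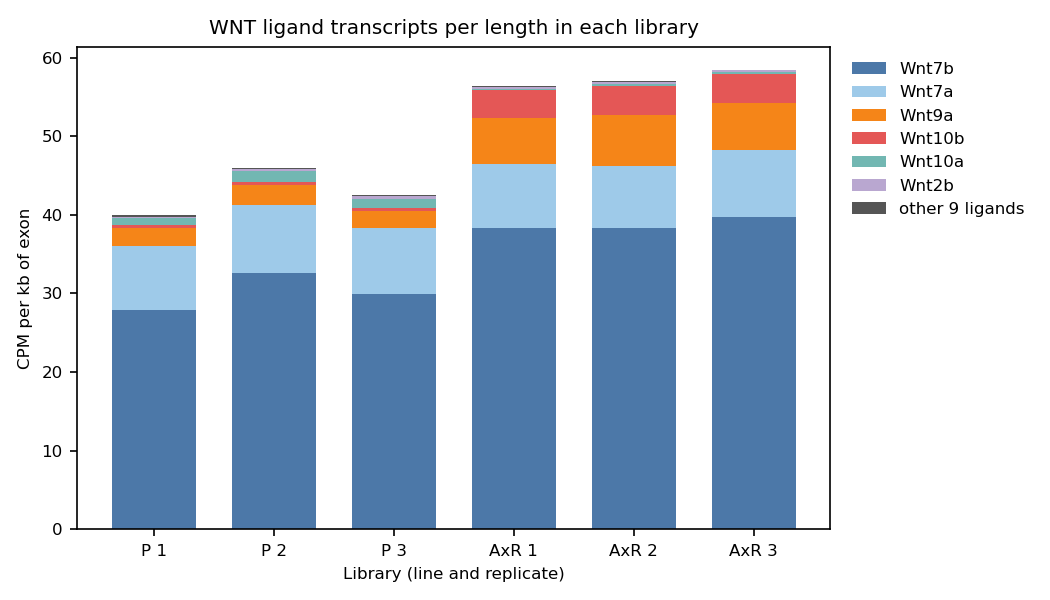
Summed level of the WNT ligands in each library (bars, CPM per kb of exon), stacked by gene for the 3 P and 3 AxR libraries. Wnt7b fills about 70.4% of the bar in P and 67.7% in AxR libraries, and the AxR bars are higher, with more Wnt9a and Wnt10b.

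The other 9 ligands were at or close to 0. Wnt1, Wnt2 and Wnt3a had no count in any library, which allows up to 0.171 to 0.196 CPM, the value of 3 counts, depending on the library. Wnt3, Wnt4, Wnt5a and Wnt6 had 3 counts or fewer in every library. Wnt5b and Wnt11 reached at most 6 and 5 counts, with overlapping lines. A difference in these 9 was not detectable at this depth. Floors and counting intervals cover counting error only.

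The ligands at or near 0 included the genomic neighbors of the 3 ligands that changed most. Wnt1 lies 11.7 kb from Wnt10b, Wnt3a lies 16.2 kb from Wnt9a and Wnt6 lies 6.19 kb from Wnt10a, with 0 protein-coding genes between them in each case. Wnt1 and Wnt3a had no count, and Wnt6 had at most 1 count. The 10 nearest tested genes on each side had median log2 fold changes of -0.04 around Wnt10b, 0.06 around Wnt9a and -0.04 around Wnt10a. Single genes in these neighborhoods did differ between the lines, such as Dhh at 120 kb from Wnt10b, with a log2 fold change of -2.77. Further out, Aqp5 at 820 kb from Wnt10b was higher in AxR cells, with a log2 fold change of 3.11.

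Among the receptors, Fzd9 and Fzd1 fell most in AxR cells, and Ryk, the most abundant per kb in P cells, fell by less. Of 15 receptor genes, 13 were tested: AxR cells had 3 higher and 6 lower, against 32.8% and 30.8% of all genes tested, and 4 were not called. Fzd9 (ENSMUSG00000049551, chr5:135248938-135251230), a Frizzled receptor studied in brain and bone, had 53, 61 and 40 counts in the P libraries and 0, 4 and 2 in the AxR libraries. These are 3.22, 3.52 and 2.61 CPM against 0, 0.255 and 0.114 CPM. The AxR libraries were at or near the floor and all below P cells (log2 fold change -4.59, SE 0.445, edgeR adjusted p = 3.51e-07). The ratio of summed counts scaled for depth, P to AxR, was 25.6, with an exact 95% counting interval of 11.5 to 70.9.

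Fzd1 (ENSMUSG00000044674, chr5:4753839-4758035), a Frizzled that can act in canonical signaling, had 12.9, 14.4 and 13.1 CPM in P cells and 1.27, 2.68 and 1.93 CPM in AxR cells. No AxR library came near a P library, and the log2 fold change was -2.78 (SE 0.176, edgeR adjusted p = 3.40e-09). Around these genes, the 10 nearest tested genes on each side had median log2 fold changes of -0.35 for Fzd9 and -0.32 for Fzd1, and the median of chromosome 5 was -0.16. Near Fzd9, Stx1a (-1.57), Limk1 (-1.26) and Bcl7b (-1.08) were also lower in AxR cells, by less than Fzd9, while Upk3bl (2.22), Mettl27 (0.90) and Por (0.76) were higher. Whether the change of Fzd9 goes with that of its neighbors was not tested.

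Ryk (ENSMUSG00000032547, chr9:102834917-102908305), an atypical receptor tyrosine kinase that binds WNT ligands, was the highest receptor per kb in P cells. Its level was 212, 192 and 202 CPM in P cells and 131, 124 and 127 CPM in AxR cells, without overlap. The log2 fold change was -0.66 (SE 0.0523, edgeR adjusted p = 3.56e-08), while the median was -0.23 for chromosome 9 and -0.44 for the 20 nearest tested genes. Per kb of exon it fell from 44.5 ± 2.22 to 28.1 ± 0.704 CPM, below Fzd6, which had 33.8 ± 0.479 CPM in P cells and 38.8 ± 3.58 CPM in AxR cells (SD, n = 3). The share of Ryk in the summed receptor level was 28.3% in P cells and 20.4% in AxR cells, and that sum was 157 ± 3.56 and 138 ± 2.75 CPM per kb. With the length of the longest transcript, that share was 34.0% in P and 24.9% in AxR cells. By that length the AxR libraries of Ryk and Fzd6 overlapped, so their order in AxR cells depends on the length used.

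The remaining calls among receptors were smaller. Fzd7, a Frizzled of stem-like epithelial cells (log2 fold change -0.45, SE 0.0709), Fzd3 (-0.43, SE 0.0765) and the co-receptor Lrp5 (-0.27, SE 0.0503) were lower in AxR cells, with edgeR adjusted p from 4.86e-05 to 0.000222. For Fzd7, the nearest genes had a median of -0.49, about the change of the gene itself. Fzd2 was higher (log2 fold change 0.49, SE 0.0787, edgeR adjusted p = 5.99e-05), as was Fzd6 (0.20, SE 0.0608, edgeR adjusted p = 0.0105). Ptk7, a pseudokinase of planar polarity, was called higher with a change of 0.14 (SE 0.0505, edgeR adjusted p = 0.0277). That call was lost with DESeq2, with library size scaling alone, without the low-count filter, and without any 1 P library or AxR replicate 2 (adjusted p from 0.0502 to 0.0987).

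Fzd4 (log2 fold change -0.03, SE 0.0653), Fzd5 (0.13, SE 0.0879), the co-receptor Lrp6 (-0.01, SE 0.0535) and Ror1 (-0.00, SE 0.148) were not called, and their lines overlapped. The small standard errors of Fzd4 and Lrp6 leave little room for a large change, whereas Ror1 lay at about 4 CPM. Fzd8 and Ror2, which encodes a receptor of non-canonical ligands, had no count in any library.

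**Figure D3:**
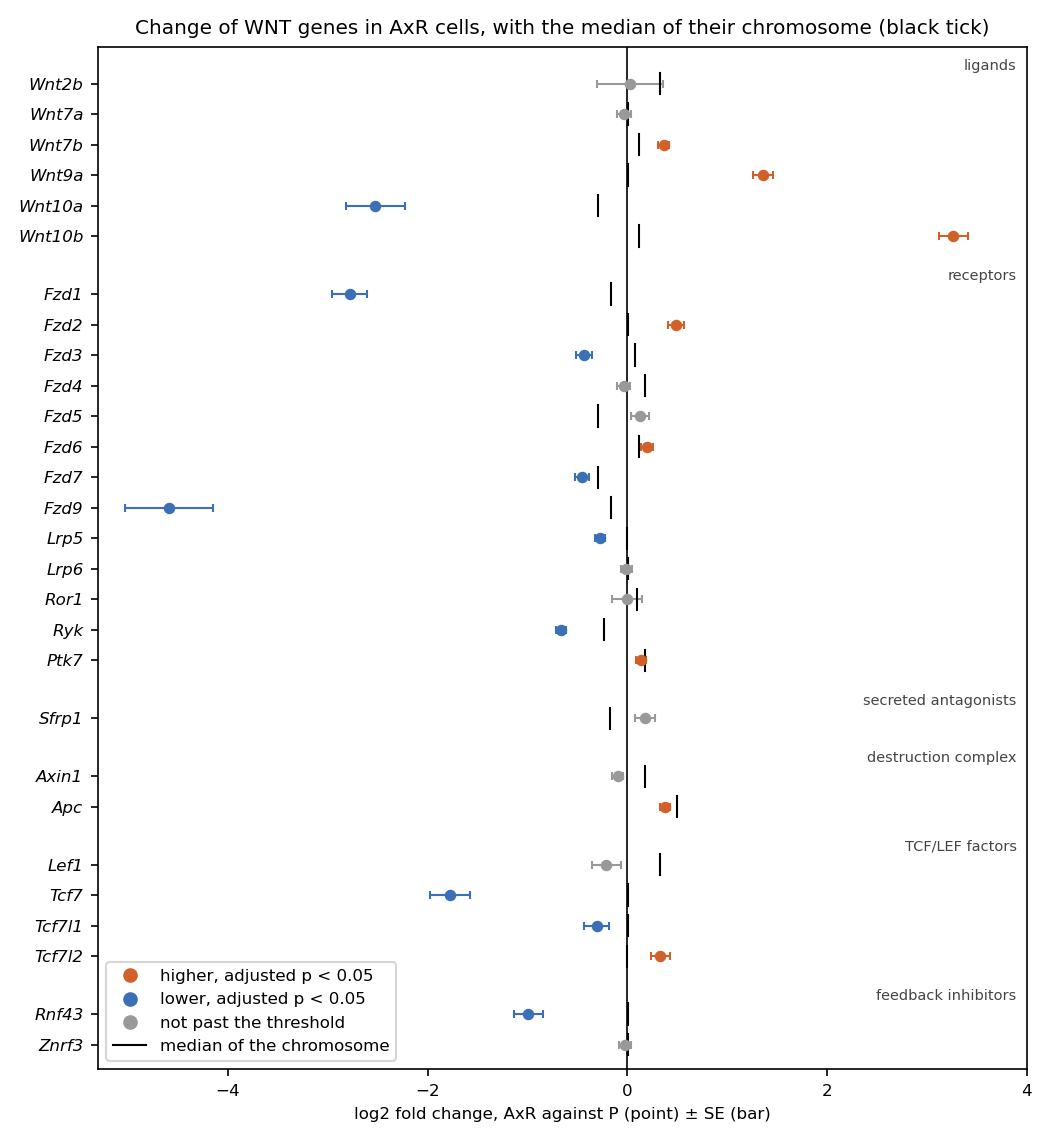
Log2 fold change of AxR against P for the 28 tested WNT genes (points) with its SE (bars), by role, with the median of all tested genes on the same chromosome (black ticks). The changes run from -4.59 for Fzd9 to 3.27 for Wnt10b, and the changes of Apc (0.38) and Fzd7 (-0.45) lie close to their ticks.

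Of the secreted antagonists, 4 of 5 were at or near 0 in both lines. Sfrp1 (ENSMUSG00000031548, chr8:23411502-23449632), which binds WNT ligands outside the cell, was the only one of 5 that could be tested. It had 16.8, 18.1 and 17.1 CPM in P cells and 20.5, 22.0 and 16.6 CPM in AxR cells, so that AxR replicate 3 was the lowest of all libraries. It was not called (log2 fold change 0.18, SE 0.1), and without AxR replicate 3 it was, at 0.30 (edgeR adjusted p = 0.00663). Dkk1 and Sfrp2 had no count and Dkk3 had at most 1. Dkk2, which encodes a ligand of LRP co-receptors that can block WNT signaling, had no count in any P library and 6 counts in each AxR library. Measured against a floor of 3 counts per library, that is at least 1.88-fold higher in AxR cells.

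In the destruction complex, Axin1 (ENSMUSG00000024182, chr17:26138688-26195811), the scaffold, had 111, 112 and 106 CPM in P cells and 98.1, 102 and 109 CPM in AxR cells, with overlap. It was not called (log2 fold change -0.10, SE 0.0548), though without AxR replicate 3 it was, at -0.14 (edgeR adjusted p = 0.0407). Apc, which encodes the tumor suppressor that holds β-catenin in the complex, was higher, at 158 ± 4.44 CPM in P cells and 206 ± 6.19 CPM in AxR cells (log2 fold change 0.38, SE 0.0489, edgeR adjusted p = 6.48e-06). The genes of its chromosome had a median log2 fold change of 0.50, above the change of Apc itself. Axin2, a feedback scaffold widely used as a readout of canonical signaling, had 1 count or 0 in every library of both lines.

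Of the TCF/LEF factors, Tcf7 fell and Tcf7l2 rose. Tcf7 (ENSMUSG00000000782, chr11:52252371-52283014), known from T cells and itself a target of the pathway, had 4.56, 4.16 and 4.56 CPM in P cells and 1.52, 1.02 and 1.31 CPM in AxR cells. The lines were well apart (log2 fold change -1.78, SE 0.203, edgeR adjusted p = 1.98e-06), while the 20 nearest tested genes had a median of 0.17. Tcf7l2 (ENSMUSG00000024985, chr19:55741820-55933654), the main factor of intestinal epithelium, had 16.6, 16.1 and 20.5 CPM in P cells and 21.1, 23.6 and 22.1 CPM in AxR cells. Its lowest AxR library was only just above its highest P library (log2 fold change 0.33, SE 0.0953, edgeR adjusted p = 0.00671).

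Tcf7l1, which often acts as a repressor, was called lower with a log2 fold change of -0.31 (SE 0.122, edgeR adjusted p = 0.0385). The call was lost with DESeq2, without the low-count filter, and without P replicate 1, P replicate 2, AxR replicate 1 or AxR replicate 2 (adjusted p from 0.0583 to 0.136). Lef1 was not called (log2 fold change -0.21, SE 0.148), at 5.01 ± 0.471 and 4.33 ± 0.343 CPM. Per kb of exon, Tcf7l2 made up 31.8 ± 3.48% of the summed TCF/LEF level in P cells and 49.0 ± 3.52% in AxR cells, and Tcf7 fell from 1.69 ± 0.0889 to 0.489 ± 0.0963 CPM per kb. The shares depend on the gene length used. With the longest transcript, Tcf7l2 made up 44.9 ± 4.18% in P cells and 60.9 ± 3.12% in AxR cells.

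Of the feedback inhibitors, Rnf43 fell and Znrf3 did not pass the test. Both encode membrane ubiquitin ligases that remove Frizzled receptors from the cell surface. Rnf43 (ENSMUSG00000034177, chr11:87662722-87735539) had 7.42, 7.04 and 8.61 CPM in P cells and 3.75, 4.34 and 3.53 CPM in AxR cells, with no overlap. Its log2 fold change was -0.99 (SE 0.144, edgeR adjusted p = 2.33e-05), where the nearest genes had a median of 0.16. Znrf3 (ENSMUSG00000041961, chr11:5276324-5444847) had 46.3, 44.6 and 45.9 CPM in P cells and 45.2, 43.4 and 46.1 CPM in AxR cells, so the lines overlapped (log2 fold change -0.02, SE 0.0607). Nkd1, which encodes an inhibitor of Dishevelled, had no count.

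**Figure D4:**
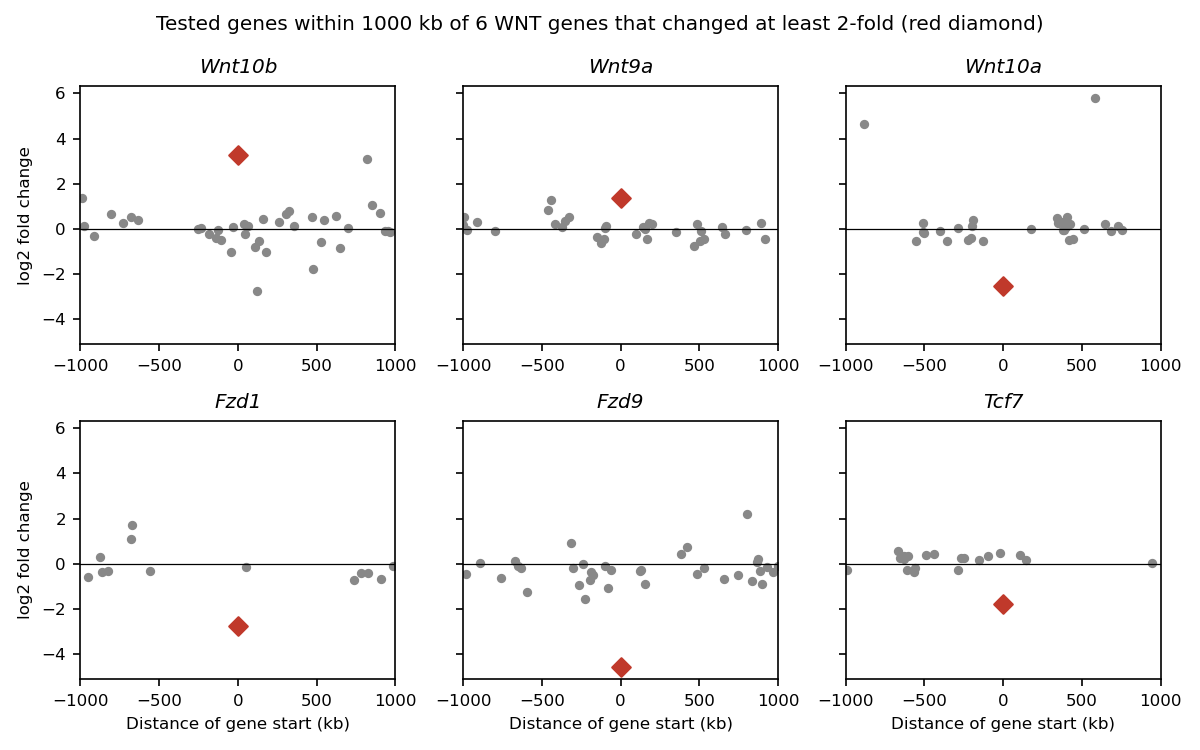
Log2 fold change of AxR against P (vertical axis) of the tested genes within 1000 kb (horizontal axis, distance of gene starts in kb) of the 6 WNT genes that changed most among those called, which are drawn as red diamonds. No neighbor of Tcf7 changed as much as its -1.78, whereas Wnt10a has a neighbor, Speg, with a larger change of 5.81.

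The wider pathway was taken from further lists, 112 genes of which 72 were tested, with 31 higher and 28 lower in AxR cells, against 32.8% and 30.8% of all genes tested, and 13 not called. In the secretion list 3 of 8 genes were tested. Wls, the carrier that brings WNT ligands to the cell surface, was higher (149 ± 7.13 and 213 ± 12.1 CPM, log2 fold change 0.52, SE 0.0558, edgeR adjusted p = 1.09e-06). Trabd2b, which encodes a protease that inactivates WNT ligands, was called higher at a low level (log2 fold change 1.02, SE 0.381, edgeR adjusted p = 0.0292), a call lost with DESeq2 and without P replicate 1 or AxR replicate 2 (adjusted p from 0.0674 to 0.182). Porcn, the acyltransferase of WNT ligands, was not called (0.10, SE 0.263).

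Among R-spondins, LGR receptors and other receptors, 6 of 15 genes were tested, with 1 higher and 4 lower, against 32.8% and 30.8% of all genes tested. The R-spondins, which enhance WNT signaling through LGR receptors, reached at most 2 counts in any library, and Lgr5 at most 2. Lgr4 was higher (log2 fold change 0.32, SE 0.102, edgeR adjusted p = 0.0126), though not without P replicate 2 (adjusted p = 0.0619). Its lines overlapped, with 22.5 CPM in AxR replicate 2 and 23.5 CPM in P replicate 1. Lgr6 was lower (-0.67, SE 0.0720). Tspan12, a partner of Fzd4, fell from 16.5 ± 1.84 to 3.49 ± 0.611 CPM (log2 fold change -2.23, SE 0.140, edgeR adjusted p = 2.85e-09), and Adgra2, a co-receptor for Wnt7 ligands, from 10.9 ± 1.66 to 3.86 ± 0.191 CPM (-1.50, SE 0.141, edgeR adjusted p = 2.53e-07). The libraries of the lines did not overlap for either gene.

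Of 14 other antagonists 3 were tested, with 1 higher and 1 lower, against 32.8% and 30.8% of all genes tested. Nkd2, a relative of Nkd1, had 29, 28 and 32 counts in P cells and 2, 0 and 0 in AxR cells, which is at least 9.31-fold lower in AxR cells against the floor.

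The cytoplasmic and nuclear list had 31 of 33 genes tested, 14 higher and 11 lower, against 32.8% and 30.8% of all genes tested. Ctnnb1, which encodes β-catenin, was higher in AxR cells, at 521 ± 17.4 and 713 ± 31.8 CPM (log2 fold change 0.45, SE 0.0489, edgeR adjusted p = 1.13e-06), on a chromosome whose median was -0.23. Gsk3b, the kinase that marks β-catenin, was slightly lower (-0.16, SE 0.0488, edgeR adjusted p = 0.0109), on a chromosome whose median was -0.32. The call of Gsk3b was lost without P replicate 1 or P replicate 3 (adjusted p = 0.0684 and 0.0677). Tle4, a Groucho co-repressor of TCF factors, fell from 15.1 ± 1.79 to 3.77 ± 0.0929 CPM (-2.00, SE 0.128, edgeR adjusted p = 3.45e-09). Cxxc5, an inhibitor of Dishevelled, rose from 2.91 ± 0.216 to 15.8 ± 0.481 CPM (2.44, SE 0.119, edgeR adjusted p = 1.75e-10), and its relative Cxxc4 was at 0 in all AxR libraries, at least 3.89-fold lower.

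**Figure D5:**
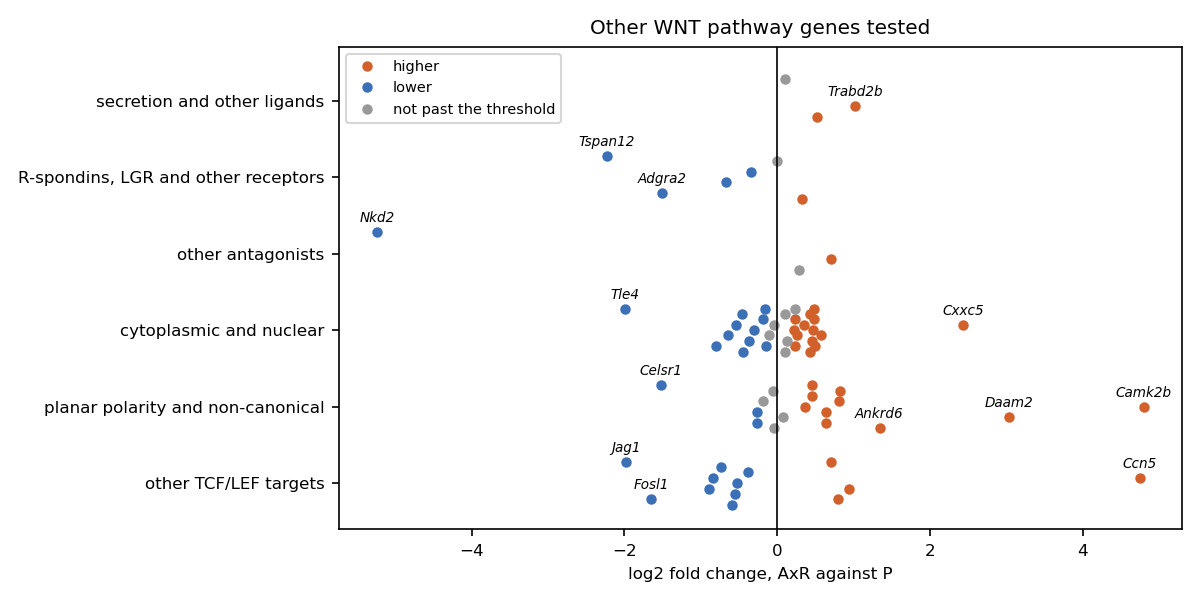
Log2 fold change of AxR against P for each tested gene of the other pathway lists and of the list of TCF/LEF targets (points, 1 row per list), with color for higher, lower and not called. The 13 tested targets lie on both sides of 0, with 9 lower (30.8% of all genes tested were) and 4 higher (32.8%).

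The list of known TCF/LEF targets held 23 genes, of which 13 were tested: 9 were lower in AxR cells, against 30.8% of all genes tested, 4 were higher, against 32.8%, and 0 were not called. These genes also answer to other pathways. Jag1, a Notch ligand, fell from 102 ± 6.33 to 25.8 ± 2.66 CPM (log2 fold change -1.97, SE 0.0754, edgeR adjusted p = 1.38e-11), and Fosl1, an AP-1 factor, from 223 ± 16.5 to 71.0 ± 9.47 CPM (-1.65, SE 0.0875, edgeR adjusted p = 1.64e-08). Myc (-0.89, SE 0.123) and Ccnd1, which encodes cyclin D1 (-0.53, SE 0.0554), were lower as well. The other lower ones were Sox4, Tnfrsf19, Cd44, Twist1 and Sox9, from -0.84 to -0.38. Higher were Birc5 (0.94), Ccn4 (0.80), Apcdd1 (0.70) and Ccn5, which was at the floor in P cells and at least 20.6-fold higher in AxR cells. Notum, a feedback deacylase of WNT ligands, had at most 15 counts in P cells and at most 2 in AxR cells, at least 3.71-fold lower. Sp5, Mmp7, Cdx2 and Fgf20 had no count, and Bambi, Ascl2, Lgr5 and Prox1 had 3 counts or fewer.

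The libraries held 15495260 to 17294525 estimated counts each, and the first principal component, with 84.3% of the variance, separated the lines. Of 12 epithelial markers 11 were above the floor, Trp63 in AxR cells only, and Krt5 was at 0. The summed level of the 12 was 2187 to 2403 CPM in P cells and 3271 to 3446 CPM in AxR cells. Among the 11 tested, 7 were higher and 3 lower, against 32.8% and 30.8% of all genes tested, and 1 was not called. The lower ones were Krt19 (log2 fold change -1.31), Elf3 (-0.29) and Cldn4 (-0.17). The summed level of 11 fibroblast markers was 31.6 to 34.9 CPM in P cells and 269 to 294 CPM in AxR cells. Only 2 of the 11 were tested, and they went opposite ways. Postn rose from 9.56 CPM in P to 270.2 CPM in AxR cells, whereas Pdgfra fell from 22.6 to 10.1 CPM. Col3a1, Lum and Thy1 were at 0. The sum of 8 lung epithelial markers was 2.98 to 3.13 and 19.6 to 25.9 CPM, mostly from Aqp5 (2.63 and 22.8 CPM), which lies 820 kb from Wnt10b, with Scgb1a1 and Hopx at 0. Leukocyte markers (11 genes) summed to 6.14 to 8.28 and 16.6 to 17.3 CPM, mostly from Cd68 (3.39 and 8.02 CPM) and Cd14 (3.52 and 8.39 CPM), while Ptprc, Lyz2, Csf1r and Itgam reached at most 5 counts and markers such as Cd3e, Tyrobp, Fcer1g and Adgre1 were at 0. Endothelial markers (8 genes) summed to 5.96 to 6.87 and 3.44 to 4.13 CPM, mostly from Egfl7 (5.82 and 3.51 CPM), with Kdr, Emcn and Cldn5 at 0. Their part in the changes of WNT genes was not tested.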

How the data were processed

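Per the labels, poly(A) RNA of 3 P and 3 AxR samples was sequenced from stranded libraries. The authors checked reads with FastQC 0.11.5, aligned them to GRCm38 with STAR 2.6.0a and deposited the estimated counts per gene of RSEM 1.3.1, unfiltered and not normalized. All sample columns were used (0 columns not used).

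Estimated counts were rounded, filtered with filterByExpr and scaled by upper quartile (factors 0.966 to 1.02). The 13550 genes left held 99.9% of the counts. They were tested with the two-sided quasi-likelihood F test of edgeR 4.0.16 (R 4.3.3, limma 3.58.1, robust dispersion, line as the only term), adjusted by Benjamini-Hochberg over all 13550 genes at a threshold of 0.05. The test was checked on simulated counts in which few genes changed, and by small folds. In these data many genes changed, so that check does not cover this setting. Positions and exon lengths came from GENCODE M21 on the same build (53274 of 53465 identifiers matched), and start-site windows from RefSeq. Windows that overlap exons or hold coding sequence were not printed. Floors of 3 counts were 0.171 to 0.196 CPM, and bounds used the highest. Alternatives were TMM, library size alone, DESeq2 1.42.0, limma-voom, other filters, no robust dispersion, a replicate block, each library left out and the longest transcript as gene length.

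The genes and lists were chosen with earlier results of these data known. Named were all tested members with their change, members with a called log2 fold change of at least 0.5 or the highest level of a role in every library, other pathway genes with a called change of at least 1, and Ctnnb1, Gsk3b, Wls, Porcn, Lgr4, Ccnd1 and Myc. Further genes were named after their values were seen. Annotated exons of 9 members overlap a gene on the other strand, none with more than 18 counts. In the marker and target lists, 1 gene each is not reported here.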

Additional observations from a re-analysis of the deposited data

How the results depend on the processing

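Between 7 and 9 WNT genes were called higher and between 8 and 11 lower over all alternatives. Their median log2 fold change, -0.027, ran from -0.0681 (without AxR replicate 3) to -0.0168 (without AxR replicate 2) when each library was left out. With the length of the longest transcript, the share of Wnt7b in the ligand level was 77.1% in P and 74.1% in AxR cells. Leaving out single libraries turned the direction of 6 genes that were not called, over log2 ranges of -0.21 to 0.36 for Wnt2b, -0.0863 to 0.018 for Fzd4, -0.0447 to 0.0277 for Lrp6, -0.0201 to 0.0198 for Ror1, -0.0394 to 0.00553 for Znrf3 and -0.0472 to 0.31 for Porcn. No called gene changed direction. The replicate numbers did not pair the samples (correlations of deviations of same-numbered libraries -0.021, -0.0061 and -0.022), and with a replicate block 7 WNT genes were higher and 9 lower, without the calls of Ptk7 (adjusted p = 0.0595) and Tcf7l1 (adjusted p = 0.0598), both from edgeR. For genes of low level, such as Wnt2b, Wnt10a and Fzd9, depth limits the precision, and for the 17 untested genes it allows no comparison other than the bound for Dkk2. Dkk2 was tested only without the low-count filter, where its log2 fold change was 5.62 (edgeR adjusted p = 0.000157), a value that depends on the prior count.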

Other observations

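Genes of planar polarity and other non-canonical branches formed a further list of 22, of which 17 were tested, with 10 higher and 3 lower in AxR cells, against 32.8% and 30.8% of all genes tested, and 4 not called. Their median log2 fold change was 0.45, against 0.01 over all genes tested. Camk2b, a subunit of the calcium-dependent kinase downstream of calcium signals, rose most, from 0.534 ± 0.124 CPM in P cells to 14.9 ± 1.62 CPM in AxR cells (SD, n = 3; log2 fold change 4.80, SE 0.191, edgeR adjusted p = 2.04e-11). Daam2, a formin that binds Dishevelled, went from 0.512 ± 0.288 to 4.24 ± 0.916 CPM (3.04, SE 0.326, edgeR adjusted p = 1.17e-06). Ankrd6, also known as Diversin, went from 2.69 ± 0.249 to 6.81 ± 1.09 CPM (1.34, SE 0.168, edgeR adjusted p = 5.19e-06).

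Calls differed among members of some families. Among the atypical cadherins of planar polarity, Celsr1 was lower (log2 fold change -1.52, SE 0.257) and Celsr2 higher (0.82, SE 0.0751). Vangl1 was higher (0.64, SE 0.0645), while Vangl2 was not called (-0.19, SE 0.102). Camk2d was higher (0.64, SE 0.0494) and Camk2g was not called (-0.06, SE 0.07). Differences between family members were not tested.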
